A study of Mus musculus with 5 samples.

Results

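The elastic fibre and fibulin genes are a set of 10 listed genes for elastin, fibrillin-1, the microfibril-associated proteins and the fibulins. The genes were listed with earlier results of these data known. Their probe sets were chosen by symbol in the platform annotation. There 8 of the 10 genes had a probe set, 11 probe sets in all, out of 12393 named genes on the arrays. Fbn1 (fibrillin-1) and Efemp2 (fibulin-4) were not analysed here. RNA came from whole tibio-femoral (knee) joints of male mice of a C57/Bl6:129 hybrid strain, 3 months old. The 2 wildtype samples were compared with 3 samples from Epiphycan and Biglycan double-null animals, which lack both of these small leucine-rich proteoglycans; the labels do not say how the alleles were made. Each of the 5 Affymetrix arrays held the pooled RNA of 3 mice (6 joints), so the spread between arrays is a spread between pools and hides that between single animals. The arrays came as 2 tables, called array types here: type A held wildtype pool 2 and double-null pool 3, and type B held wildtype pool 1 and double-null pools 1 and 2.

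Elastic fibres give skin, vessels, ligaments and joint capsules their recoil. A core of cross-linked elastin lies in a mantle of microfibrils, which are built of fibrillin and carry the small glycoproteins MAGP-1 and MAGP-2 (genes Mfap2 and Mfap5). Fibulins are secreted proteins with calcium-binding EGF repeats, and several of them guide elastin onto the microfibrils or link it to cells and basement membranes. Biglycan, missing in the double-null mice, is itself known to bind tropoelastin and MAGP-1.

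Among the measured members, Fbln7 alone passed the test, higher in the double-null joints, though its call held in only 7 of 16 alternative settings. Its RefSeq promoter is printed because Fbln7 is the member the comparison turns on, and that of Mfap2 because its groups also lay apart. Both run from 250 bases before to 50 bases after a transcript start, 5′ to 3′, on the GRCm38.p6 build. Capitals mark the GC box (GGGCGG, either strand).

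Fbln7, plus strand, chr2:128863682-128863981: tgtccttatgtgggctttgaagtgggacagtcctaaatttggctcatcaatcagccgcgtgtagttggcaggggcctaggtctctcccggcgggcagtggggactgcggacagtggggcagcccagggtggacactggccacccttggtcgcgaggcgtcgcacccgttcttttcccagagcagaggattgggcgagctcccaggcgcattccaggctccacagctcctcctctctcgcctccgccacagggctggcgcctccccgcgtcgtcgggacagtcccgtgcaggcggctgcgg
Mfap2, plus strand, chr4:141010431-141010730: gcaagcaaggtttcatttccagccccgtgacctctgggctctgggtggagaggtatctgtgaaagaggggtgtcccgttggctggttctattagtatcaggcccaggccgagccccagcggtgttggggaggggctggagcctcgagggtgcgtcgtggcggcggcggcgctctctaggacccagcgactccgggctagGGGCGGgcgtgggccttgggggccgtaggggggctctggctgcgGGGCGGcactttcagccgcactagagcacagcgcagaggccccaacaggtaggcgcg

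Promoter sequences were at hand for 5 of the 8 measured members, and not for Mfap5, whose groups also lay apart. The Fbln7 window was 66.0% G and C, against a median of 52.7% over all 32817 promoters of that length. It held none of 4 motifs searched on both strands: the GC box, the TATA box (TATAAA), an AP-1 element (TGANTCA) and a SMAD element (CAGACA). Over all promoters these stood in 35.6%, 13.6%, 7.81% and 21.0%. The Mfap2 window, 1 of 2 entries for that gene, held 2 GC boxes and none of the other motifs. Of the 2 Mfap2 entries, this 1 was picked for its GC boxes. The other entry, chr4:141010174-141010473, held 0 GC boxes and 1 SMAD element and was 52.0% G and C. A match describes letters only.

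The deleted genes were read first, as a check of the labels. The 3 Bgn probe sets gave signals of 2003 to 4063 in the wildtype pools and 7.05 to 224 in the double-null pools. The single Epyc probe set gave 78.8 and 91.2 in wildtype and 1.29 to 10.8 in double-null pools. Each array had a 2% trimmed mean of 250.1, and the brightest of 27 control probe sets for Bacillus genes, absent from mouse cells, ran from 27.5 to 63.5 over the arrays. The tissue labels were read against marker lists. Of 10 cartilage markers 8 passed the intensity filter described below, as did 8 of 8 skeletal muscle, 8 of 8 neutrophil and 5 of 8 smooth muscle markers. Of the measured markers, 2 of smooth muscle, 1 of adipocytes and 1 of skin stayed at or below the highest Bacillus control of every array. In such a mixed tissue, fewer cells of a type and less RNA per cell cannot be told apart.

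Signals are given as deposited (MAS5, linear), and levels of different probe sets are not set against each other. Differences between genotypes are log2 fold changes of double-null against wildtype pools, taken from values normalised as log2(signal + 32). Array type was a term of the fit, so that each difference compares arrays within a table. This scale understates the change of dim genes. Whether the groups of a gene lay apart or overlapped was also read on these normalised values, so the deposited signals of a gene counted as apart can overlap. Each gene was read on its brightest probe set, and 7436 genes above the 40th percentile of mean level (a signal near 98.5) were tested with limma. Of the 8 members 7 passed that filter, and Mfap4 did not. The threshold was a Benjamini-Hochberg adjusted p of 0.05 over all genes tested.

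**Figure D1:**
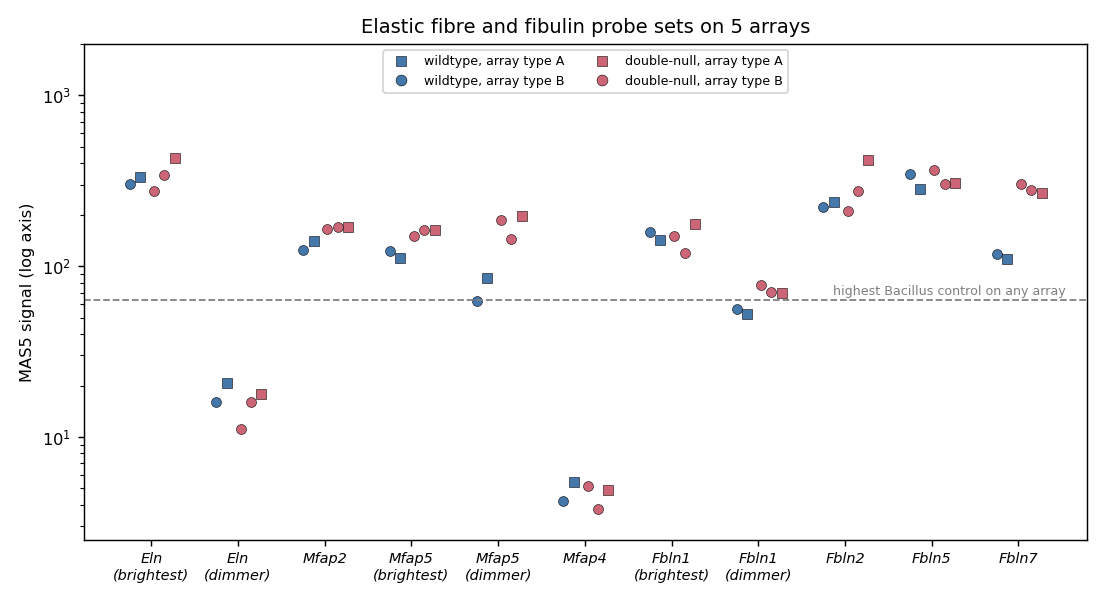
Deposited MAS5 signal (log axis) of the 11 member probe sets, 1 point per array; blue is wildtype, red is double-null, squares are array type A and circles type B, and the dashed line marks 63.5, the highest Bacillus control on any array. The 3 double-null points of Fbln7 lie between 269 and 303 and both wildtype points at 109 and 118, while Mfap4 and the dimmer Eln probe set lie below the line on every array.

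Elastin, the rubber-like core protein, showed no difference that passed the test. On its brightest probe set Eln read 301 and 334 in wildtype pools 1 and 2, and 274, 340 and 431 in double-null pools 1 to 3. The double-null pools held both the lowest and the highest value, so the groups overlapped. The log2 fold change was 0.18 ± 0.18 (SE), with a 95% interval from -0.22 to 0.57 (limma adjusted p = 0.99). Its other probe set read 16.1 and 20.6 against 11.2 to 17.8, at or below the highest Bacillus control of each array, so it gives no usable level of elastin message. The 2 tested genes whose centred profile over the 5 arrays lay nearest to that of Eln were Opn4 and Slc10a6, with root mean square differences of 0.034 and 0.037 on the log2 scale, where the profile of Eln itself had a root mean square of 0.20.

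The microfibril-associated genes Mfap2 and Mfap5 were higher in every double-null pool than in either wildtype pool, but neither passed the test. Mfap2 encodes MAGP-1, which sits on the beads of fibrillin microfibrils. It read 124 and 140 in wildtype pools 1 and 2, and 165, 168 and 170 in double-null pools 1 to 3. The double-null values lay within a few units of each other and above both wildtype values. The log2 fold change was 0.34 ± 0.18 (SE, 95% interval -0.066 to 0.74, limma adjusted p = 0.85).

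Mfap5 encodes MAGP-2, a related microfibril protein that also carries an integrin-binding RGD site. Its brightest probe set read 123 and 111 in wildtype pools 1 and 2, and 150, 164 and 162 in double-null pools 1 to 3. The groups did not overlap, and the log2 fold change was 0.39 ± 0.19 (SE, 95% interval -0.020 to 0.79, adjusted p = 0.82). Its other probe set showed a larger difference. That one read 62.7 and 84.7 in wildtype, and 186, 145 and 196 in double-null pools 1 to 3, again with the groups apart. In a limma fit over all 22626 probe sets its log2 fold change was 1.06 ± 0.22 (SE; unadjusted p = 0.0020, adjusted p = 0.54), at 0.97 on array type A and 1.13 on type B. The size of the Mfap5 difference thus depended on the probe set, at 2.09-fold on one and 1.31-fold on the other, while the direction did not. With both probe sets averaged the log2 fold change was 0.72 (adjusted p = 0.22).

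Mfap4, a fibrinogen-related protein that binds elastic fibres, was not detected. Its single probe set read 4.21 and 5.44 in wildtype and 3.78 to 5.19 in double-null pools, below the highest Bacillus control on all 5 arrays. Its log2 value is counted with the others only to account for every member, and is no measured difference.

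**Figure D2:**
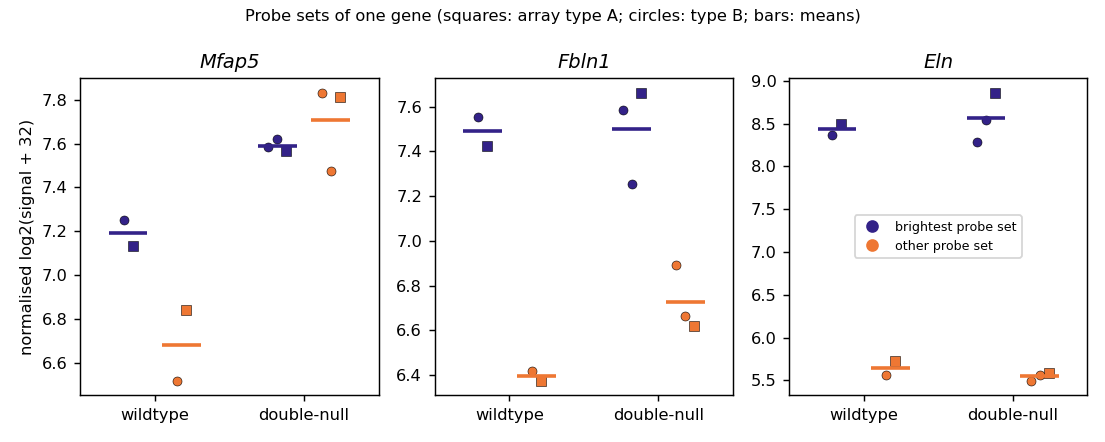
Normalised log2(signal + 32) of the 3 members with 2 probe sets each, by genotype; points are arrays (squares type A, circles type B) and bars are group means. Both Mfap5 probe sets are higher in all double-null arrays, whereas the Fbln1 pair differs in whether the groups overlap. The fit with array type as a term put the Mfap5 log2 fold change at 0.39 on the brightest and 1.06 on the other, which is not exactly the distance between the bars.

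Fibulin 1 and fibulin 2, the larger fibulins of basement membranes and vessel walls, did not pass the test. Fbln1 on its brightest probe set read 159 and 143 in wildtype pools 1 and 2, and 150, 120 and 176 in double-null pools 1 to 3. The double-null values ranged around the wildtype ones, and the log2 fold change was 0.025 ± 0.20 (SE, 95% interval -0.41 to 0.46, adjusted p = 0.996). A dimmer probe set of Fbln1 read 56.2 and 52.2 against 77.7, 70.8 and 69.3. It had its groups apart at a log2 fold change of 0.31 ± 0.21 (SE, limma adjusted p = 0.94 over all probe sets). It lay below the filter, and its wildtype signals lay under 63.5 but above the highest control of their own arrays.

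Fbln2 read 222 and 238 in wildtype pools 1 and 2, and 211, 276 and 417 in double-null pools 1 to 3. Double-null pool 3 was the highest array and double-null pool 1 the lowest, so the groups overlapped. The log2 fold change was 0.41 ± 0.20 (SE, 95% interval -0.026 to 0.84, adjusted p = 0.83). On array type A, which holds double-null pool 3, it was 0.76, and on type B it was 0.15.

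Of the short fibulins, Fbln7 passed the test and Fbln5 did not. Fbln5, which tethers elastin to microfibrils and binds integrins through an RGD site, read 345 and 283 in wildtype pools 1 and 2. In double-null pools 1 to 3 it read 365, 304 and 309, within and just above the wildtype span. The log2 fold change was 0.032 ± 0.18 (SE, 95% interval -0.35 to 0.42, adjusted p = 0.99).

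Fbln7 encodes a cell adhesion protein first described in teeth, which binds fibronectin and heparin. It read 118 and 109 in wildtype pools 1 and 2, and 303, 278 and 269 in double-null pools 1 to 3. The lowest double-null value stood above the highest wildtype value by more than the whole spread within either group. The log2 fold change was 1.13 ± 0.18 (SE, 95% interval 0.75 to 1.51), or 2.19-fold, with limma adjusted p = 0.040. It ranked 6 by p among the genes tested and was 1.10 on array type A and 1.15 on type B. Of all tested genes 0.0807% were called higher and 0.0403% lower, which is the background for 1 of 7 tested members called.

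The size of the Fbln7 difference moved little with the arrays used, from 1.07 to 1.16 without any 1 pool. Without wildtype pool 2 or double-null pool 3 only the contrast of array type B is left, and without wildtype pool 1 only that of type A. Those fits thus repeat the values of the 2 array types. The Fbln7 call did not hold everywhere. The limma adjusted p was 0.68 with wildtype pool 1 left out, 0.29 with wildtype pool 2 left out and 0.29 with double-null pool 3 left out. It was 0.056 on the deposited scaling, 0.072 without the array-type term, 0.24 without the filter, 0.28 on array type B alone, 0.0501 without the intensity trend and 0.71 with a replicate block. In the fit over all probe sets it was 0.33, and 0 of the 11 member probe sets passed there, against 0.00442% of probe sets called higher and 0.0221% called lower. A split of 2 against 3 arrays cannot give an exact permutation p below 0.1.

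The tested genes nearest to Fbln7 in profile over the 5 arrays were Htra1, a secreted serine protease, and Npy, a neuropeptide, with root mean square differences of 0.091 and 0.097 against 0.57 for the Fbln7 profile itself. Htra1 read 438 and 365 in wildtype and 1022, 789 and 791 in double-null pools 1 to 3. Npy read 243 and 246 against 562, 515 and 449. Both had every double-null pool above both wildtype pools, as any gene near Fbln7 by this measure does.

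**Figure D3:**
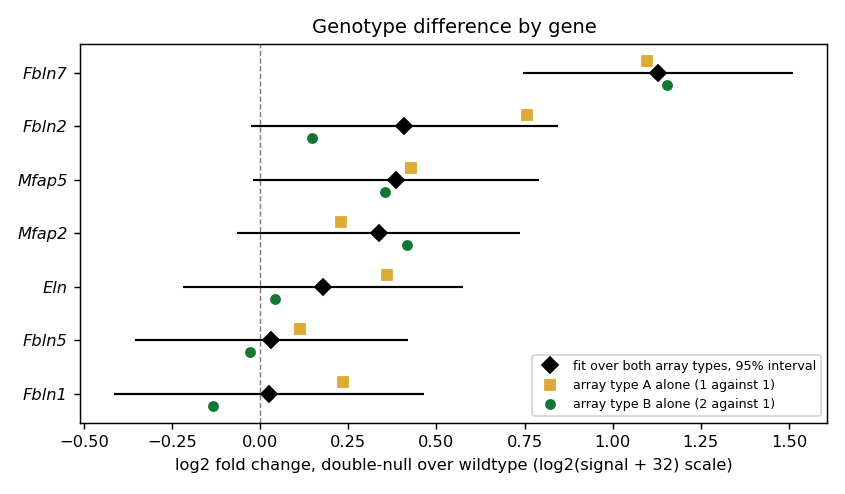
Log2 fold change, double-null over wildtype, of the 7 members past the filter; diamonds and bars are the fit with its 95% interval, squares array type A alone and circles array type B alone. Fbln7, at 1.13, is the 1 member of the 7 whose interval excludes 0, and Fbln1 and Fbln5 have opposite signs on the array types.

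Across all 8 measured members the median log2 fold change was 0.26, against -0.012 over all 12393 genes, and all 8 values were above 0, as were 47.6% of all genes. The values of Fbln1, Fbln5 and Mfap4 were within 0.04 of 0, and without double-null pool 1 the count above 0 was 5. Without wildtype pool 2 or double-null pool 3 the median was 0.096 in each case, and both of these are the contrast of array type B. Every double-null pool lay above both wildtype pools for Fbln7, Mfap2 and Mfap5, that is 3 of 8 members, against 8.92% of all genes, and 0 of 8 lay below, against 10.8%. The same sign, upward, on both array types was seen in 5 of 8, against 21.9% of all genes. These counts describe a short list that was chosen with earlier results of these data known, so they were given no test.

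The genotype difference itself was compared between the array types by an interaction term. None of the 7 tested members passed at an unadjusted p of 0.05, against 6.29% of genes, and 0 of 7436 genes (0%) passed after adjustment. The difference with the smallest p was that of Fbln2, at -0.61 ± 0.35 (SE, type B minus type A, limma unadjusted p = 0.12, adjusted p = 0.81). Each array type holds 1 wildtype pool, so a pool and an array type cannot be told apart.

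Other genes of the pathway were taken from lists chosen with earlier results of these data known, so the counts were given no test. The genes named have the smallest p in their list. None of the 9 tested microfibril and assembly genes passed, though 6 were above 0, with a median of 0.32. The latent TGF-beta binding proteins, fibrillin relatives that hold TGF-beta on microfibrils, supplied the 3 smallest p-values. Ltbp3 read 452 and 482 in wildtype and 561 to 739 in double-null pools (log2 fold change 0.49, limma adjusted p = 0.66), but was at 0.093 when its probe sets were averaged. Ltbp4 read 187 and 134 against 212 to 241 (0.44, adjusted p = 0.74), and Ltbp1 read 107 and 139 against 149 to 231 (0.48, adjusted p = 0.82). All 3 had the groups apart, as did 5 of the 9 tested genes of this list, all upward, against 9.45% of tested genes apart upward and 10.2% apart downward.

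Cross-linking enzymes gave 0 of 6 genes past the test, with a median of 0.12. The values were 0.36 for Lox, the main lysyl oxidase, 0.22 for Loxl1, its relative at elastic fibres, and 0.16 for Loxl3. Loxl1 alone of the 6 had the groups apart, at 418 and 367 against 439 to 486, where 9.45% of tested genes were apart upward and 10.2% downward.

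Matrix proteins that bind fibulins, fibrillin or tropoelastin held the called genes of the pathway, with 2 of 14 higher, against 0.0807% of tested genes. The 1 lower call, against 0.0403%, was the deleted Bgn and was fixed by the design. Of the 14, 7 had the groups apart upward and 1, Bgn, downward, against 9.45% and 10.2% of tested genes. Not all of the 7 were apart on the deposited signals. The list was chosen with earlier results of these data known, so its counts were given no test. Fn1, encoding fibronectin, on which microfibrils assemble, read 6735 and 3848 in wildtype pools 1 and 2. In double-null pools 1 to 3 it read 8732, 10669 and 8311, all above wildtype (log2 fold change 0.83 ± 0.13 SE, limma adjusted p = 0.044). Col6a1, a chain of the beaded collagen VI, read 822 and 610 against 2270, 1479 and 1676 (1.23 ± 0.20 SE, adjusted p = 0.044). Fn1 was called in 6 of 17 alternative settings and Col6a1 in 4 of 17.

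Receptors gave 0 of 8 past the test, with a median of 0.039. The groups were apart downward for 2 of the 8, Itga9 and Neu1, against 10.2% of tested genes, and upward for 0, against 9.45%. Itga9, an integrin chain, read 157 and 174 against 77.3 to 132 (-0.53, adjusted p = 0.69), Neu1, a sialidase of the elastin receptor complex, was at -0.28 and Itga4 at 0.29. TGF-beta genes gave 0 of 8, with a median of -0.0054, and Inhba was at -0.42, Tgfbr2 at 0.24 and Tgfbi at 0.21. Among these 8 the groups were apart upward for 1 and downward for 1. Elastin-degrading proteases and their inhibitors gave 0 of 15, with a median of 0.082 and the groups apart upward for 3 and downward for 3. Within these Mmp2, a stromal gelatinase, was at 0.58 (limma adjusted p = 0.68). The neutrophil elastase gene Elane was at -0.32 (adjusted p = 0.75) and the elastase inhibitor gene Slpi at -0.40 (adjusted p = 0.77). Elane and another of the 3 counted as apart downward overlapped on the deposited signals. Elane read 5582 in wildtype pool 2 and 5648 in double-null pool 2.

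**Figure D4:**
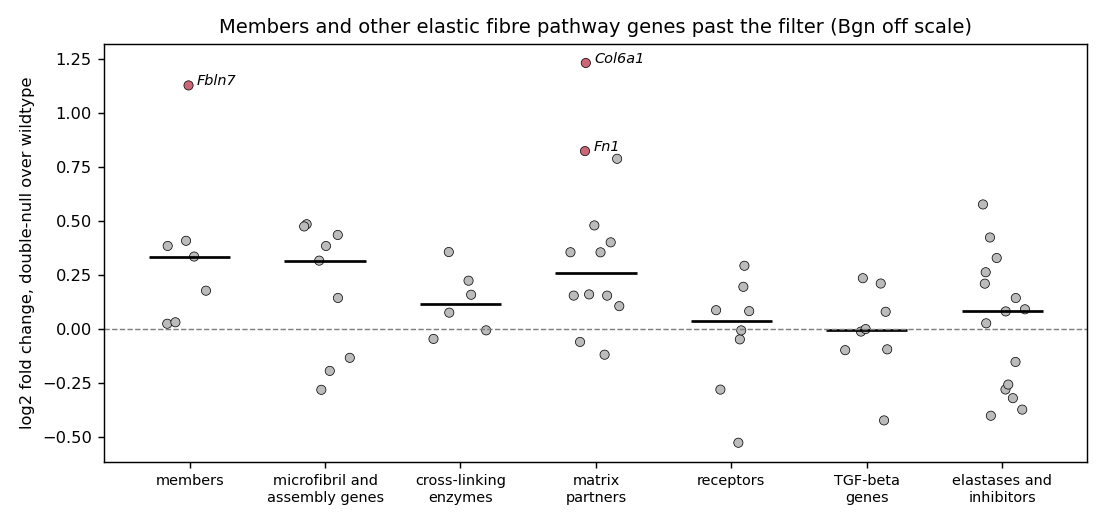
Log2 fold change, double-null over wildtype, of the members and of the other pathway genes past the filter; each point is a gene, red points passed an adjusted p of 0.05, and black lines are medians over each list, Bgn included. Fbln7 at 1.13, Col6a1 at 1.23 and Fn1 at 0.83 are the red points, and Bgn, at -3.48, is off the scale.

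Cell types that could carry these genes were read on their marker lists. The 8 smooth muscle markers summed to 2173 and 2230 in wildtype and 1964 to 2859 in double-null pools, with 2 of them below the highest Bacillus control on every array. All 5 tested were above 0, with a median of 0.11, and 0 were called. Tagln alone of the 5, at 0.37, had the groups apart upward, against 9.45% of tested genes. Its deposited signals overlapped, at 152 in wildtype pool 1 and 150 in double-null pool 2. The 10 measured tendon, ligament and fibroblast markers summed to 40828 and 25355 in wildtype and 26612 to 36918 in double-null pools. Col1a1 and Col1a2 made up 85.6% to 94.3% of these sums; the other 8 markers summed to 2327 and 2429 in wildtype and 3479 to 3845 in double-null pools, with the groups apart. Of the 8 tested markers 4 had every double-null pool above both wildtype pools, against 9.45% of tested genes, and 0 were called. Their median was 0.22. Dpt was at 0.998 (limma adjusted p = 0.051), Thbs4 at 1.02 and Tnmd at 1.03. Pdgfra was at 0.28, Fmod at 0.17, Col1a1 at -0.039, Col1a2 at -0.063 and Cilp2 at -0.23. The 6 synovial lining markers summed to 9559 and 5978 against 7426 to 10648, of which Prg4 gave 6179 and 3324 against 4544 to 6884. All 5 tested synovial markers were above 0, with a median of 0.28, and 0 were called. Cd55 alone of the 5, at 0.61, had the groups apart, where 9.45% of tested genes were apart upward. The 8 endothelial markers summed to 1989 and 1530 against 1640 to 1830. The skeletal muscle sums ran in the double-null group from 27898 to 69703, against 47222 and 56120 in wildtype. The part of these cell types in the Fbln7, Mfap2 and Mfap5 values was not tested.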

How the data were processed

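The authors deposited MAS5 signal intensity values per probe set (linear scale, MAS5 per the submitters' processing notes, version and scaling target not given in the sources used here) for 22690 probe sets. All values were positive, from 0.0423 to 26173. A constant of 32 was added, log2 was taken, and the 5 arrays were quantile normalised. The annotation gave 1 gene symbol for 20393 probe sets, several for 691 and none for 1606; 20364 symbols were matched to RefSeq's GRCm38.p6 gene table through Entrez numbers. Genotypes were compared with limma 3.58.1 under R 4.3.3, two-sided, using lmFit and eBayes with an intensity trend; there were 2 residual degrees of freedom and the prior added 9.80. The fit was tested on simulated data. Means, calls and alternatives rest on 5 arrays, and their number limits the precision.

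The members and gene lists were chosen with earlier results of these data known. Text names all members, Bgn and Epyc, the 3 genes of smallest p in each pathway list, the 2 nearest profiles of Eln and Fbln7, and markers chosen after their values were seen. Alternatives were the scaling, pseudocounts of 1 and 128, the filter, the array-type term, a replicate block, the trend, averaging probe sets, and leaving out each array.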

Additional observations from a re-analysis of the deposited data

How the results depend on the processing

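The count of members past the threshold, 1, was 0 on the deposited scaling, without the filter, with the filter at the 60th percentile (which leaves Fbln7 untested), on array type B alone, when the array-type term was dropped, with the replicate block and without the trend, and 0 to 1 without single arrays. The median over the members (0.26) was 0.18 with the larger pseudocount, 0.097 on array type B alone, 0.11 with the replicate block and 0.096 to 0.30 without single arrays, and the count above 0 ran from 5 to 8 without single arrays. Some values changed sign, none of them called. Eln, at 0.18 in the main fit, was at -0.023 with the block. Fbln1 was at -0.0089 on the deposited scaling, -0.14 on type B, -0.070 with the block and -0.13 to 0.24 without single arrays. Fbln5 was at -0.029 on type B and -0.029 to 0.11 without single arrays. Mfap4 was at -0.0028 on the deposited scaling and -0.037 to 0.043 without single arrays. Tgfbi, at 0.21 in the main fit, ran from -0.16 to 0.49 without single arrays. Fbln7 kept its sign in all 16 alternatives that tested it, from 0.78 to 1.33, and was called in 7. Over all genes, 6 higher and 3 lower calls became 0 to 40 and 0 to 10, and the 2 pathway genes called higher became 0 to 2. The cause of these changes was not tested. Whether replicate numbers 1 and 2 pair the pools was not settled. Deviations from the group means correlated at 0.0048 and -0.18 across genes. The deviations of the 2 wildtype pools mirror each other and were not adjusted for array type, so these values cannot decide it. The block replaced the array-type term, since both together leave no residual degree of freedom, and gave Fbln7 a value of 1.19 (limma adjusted p = 0.71). An array left alone in its genotype or type is assumed to vary like the others.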
